A study of Mus musculus with 6 samples.

Results

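The genes described here are the histone lysine methyltransferases and demethylases, the enzymes that add methyl groups to histone lysines (writers) or take them off (erasers). Members were taken by symbol from the deposited gene table: 48 of its 24470 genes have a symbol that starts with Kmt, Kdm, Setd, Nsd, Ezh, Ehmt, Suv39h or Smyd followed by a digit. The 18 Kdm genes were counted as erasers and the other 30 as writers. The rule uses names only, so it also takes in proteins whose histone activity is debated, or that mainly methylate other proteins: 10 of the 30 writers and 1 of the 18 erasers, Kdm8. The cells were naive CD4+ T cells purified with magnetic beads (MACS) from the spleen and the lymph nodes draining the skin, taken from C57BL/6J males. For each of the 6 libraries, cells had been kept for 6 h in 200 µL of medium on antibodies to CD3 and CD28 coated at 1 µg/mL, so that every culture was activated through the T cell receptor. Recombinant mouse CCL19, the lymph node chemokine that binds the receptor CCR7, was present in 3 cultures and absent from the other 3. No unstimulated sample was analysed here, and the animals' age and the CCL19 dose were not given in the sources used here.

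A methyl group on a histone lysine is written with the histone, the residue and the degree of methylation. Trimethylation of H3K4 marks active promoters and its monomethylation marks enhancers, H3K36 methylation marks transcribed gene bodies, H3K27 trimethylation by Polycomb repressive complex 2 (PRC2) marks silenced developmental genes, and H3K9 and H4K20 trimethylation mark heterochromatin. In T cells these marks hold naive genes on and lineage genes off, and are rewritten as activated cells divide and take on a helper fate.

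The promoters of 4 of the members that the results turn on are printed because the difference between the cultures ran in opposite directions for these genes, higher with CCL19 for Smyd2 and Smyd5 and lower for Kmt5c and Ehmt2. Each is the 250 bases before the RefSeq start on the gene's own strand, 5′ to 3′, in GRCm38.p6, the assembly behind mm10. Capitals mark matches on either strand to CACGTG (an E-box), GGGCGG (a GC box) or CCAAT.
Smyd2: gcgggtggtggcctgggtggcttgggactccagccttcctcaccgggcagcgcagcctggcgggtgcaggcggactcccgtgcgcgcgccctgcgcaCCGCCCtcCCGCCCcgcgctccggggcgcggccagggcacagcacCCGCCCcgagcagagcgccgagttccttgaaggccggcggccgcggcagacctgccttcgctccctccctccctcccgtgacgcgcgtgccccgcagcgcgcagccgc
Smyd5: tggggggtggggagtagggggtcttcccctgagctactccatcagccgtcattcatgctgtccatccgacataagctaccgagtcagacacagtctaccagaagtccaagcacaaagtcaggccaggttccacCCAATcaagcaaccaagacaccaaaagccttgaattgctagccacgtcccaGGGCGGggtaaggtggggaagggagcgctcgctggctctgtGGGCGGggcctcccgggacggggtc
Kmt5c: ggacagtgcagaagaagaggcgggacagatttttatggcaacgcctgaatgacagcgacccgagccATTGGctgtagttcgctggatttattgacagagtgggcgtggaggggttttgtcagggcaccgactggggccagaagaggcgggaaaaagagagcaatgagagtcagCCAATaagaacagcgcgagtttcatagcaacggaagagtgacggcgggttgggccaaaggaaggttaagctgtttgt
Ehmt2: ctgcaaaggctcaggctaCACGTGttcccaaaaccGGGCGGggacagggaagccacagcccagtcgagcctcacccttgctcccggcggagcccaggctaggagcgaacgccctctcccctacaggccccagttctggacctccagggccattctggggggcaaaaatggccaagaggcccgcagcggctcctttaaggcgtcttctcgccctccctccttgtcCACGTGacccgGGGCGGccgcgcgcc
The Smyd2 stretch (chr1:189922292-189922541, minus strand) is 78.8% G and C with 34 CpG, and holds 3 GC boxes. The Smyd5 stretch (chr6:85431726-85431975, plus strand) is 60.4% G and C with 10 CpG, and holds 2 GC boxes and 1 CCAAT. The Kmt5c stretch (chr7:4739877-4740126, plus strand) is 53.6% G and C with 13 CpG, and holds 2 CCAAT. The Ehmt2 stretch (chr17:34898224-34898473, plus strand) is 67.6% G and C with 18 CpG, and holds 2 E-boxes and 2 GC boxes. Among 32841 mouse promoters of the same length in the RefSeq table, the median was 52.4% G and C with 6 CpG, and 6.02% held CACGTG, 32.7% held GGGCGG and 33.9% held CCAAT. The table held 36 of the 48 members.

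Libraries held 16978736 to 27429898 counts assigned to genes, and the family took 1.004% to 1.097% of them in each. Levels are given as CPM, the counts of a gene relative to the size of its library, scaled by edgeR's TMM factors, which lay between 0.9792 and 1.016. On the first principal component, with 41.8% of the variance, the 3 CCL19 libraries scored 25.4, 11.4 and 1.69 and the 3 without CCL19 -24.7, -7.27 and -6.61, so the third CCL19 library lay nearest to the other group. The T cell label held in the data, with mean Cd4 at 570.2 CPM with CCL19 and 635 without, and Cd3e at 334 and 342. The 6 B cell markers all had a log2 fold change below 0, with a median of -0.33 and none called, and summed to 16.5 to 22.6 CPM against 21.2 to 25. The sums were 8.79 to 15.3 against 10.3 to 16.5 for myeloid and dendritic markers, 6.44 to 7.44 against 6.53 to 8.03 for NK markers, 12.4 to 17.2 against 14.6 to 15 for CD8 markers, and 15.6 to 16.8 against 11.8 to 18.5 for erythroid markers. None of these markers was at 0 in every library. The labels do not say whether the 3 samples of a group came from separate animals or cultures, so each p covers only how much these samples vary, and that variation may be technical. In such bulk RNA, fewer cells of a type and less RNA per cell cannot be told apart.

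Most of the family was transcribed at this time, over a wide range of levels. Of the 48 members, 46 passed the filter on low counts. Per kilobase of annotated exon, the highest level was that of the eraser Kdm6b (JMJD3), an inducible demethylase of H3K27, at a mean of 222.9 CPM per kb and 180 to 280.9 over the 6 libraries. The H3K4 monomethyltransferase of enhancers Kmt2d came next, at 76.5 CPM per kb (65.9 to 86.7), followed by Smyd5 at 69.8 (52.1 to 86.8), the H3K4 methyltransferase Kmt2a at 66.1 (60.6 to 71.7) and its relative Kmt2b at 52.7 (47.9 to 56.9). Kdm6b stood apart from Kmt2d in every library, while the ranges of Kmt2d, Smyd5 and Kmt2a overlapped and that of Kmt2b overlapped with the next member, the H4K20 monomethyltransferase Kmt5a at 50.3 (41.1 to 55.5). At the other end, the H3K36 methyltransferase Nsd2 stood at 3.0 CPM per kb, Smyd3 at 2.26 and the heterochromatin H3K9 methyltransferase Suv39h2 at 1.74. The untested Kdm4d and Smyd1 were at 0.137 and 0.0181. Length here is the union of exons over a gene's annotated transcripts, 15546 bases over 5 for Nsd2, and the order depends on it. Unscaled, Nsd2 had means of 47.61 CPM with CCL19 and 45.82 without. Those of Ezh2, at 12.49 CPM per kb, were lower, 36.25 and 33.77.

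**Figure D1:**
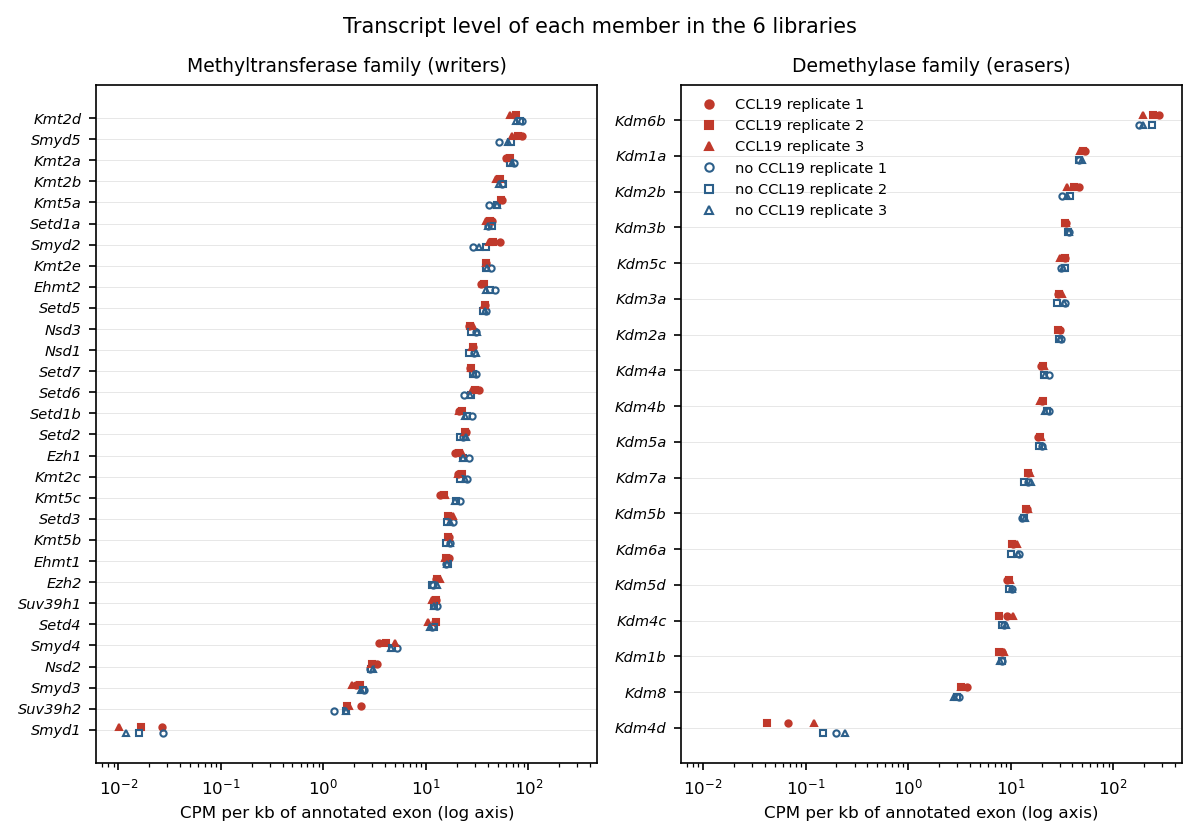
Level of each member in CPM per kilobase of annotated exon (log axis), writers in one panel and erasers in the other, 1 point per library coloured by group. Kdm6b lies above every other member in each of the 6 libraries, and Kdm4d and Smyd1 lie lowest.

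CCL19 against no CCL19 was compared gene by gene over the 11666 genes that passed the filter. With edgeR's quasi-likelihood test and Benjamini-Hochberg adjustment, no gene passed 0.05 in either direction (0.0%), and the lowest adjusted p was 0.0505. At an unadjusted p under 0.05 edgeR had 3213 genes (27.5%), and limma-voom also called none after adjustment. DESeq2, run on the same counts, called 1168 genes (10%), 630 of them higher with CCL19 (5.4%) and 538 lower (4.61%). These were the same 1168 genes, in the same directions, as in the authors' deposited list. A member is described below as called where DESeq2's adjusted p was under 0.05, and no such call was shared by edgeR.

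DESeq2 called 5 of the 46 tested members (10.9%, beside 10% of all tested genes), 2 higher with CCL19 (Smyd2 and Smyd5) and 3 lower (Kmt5c, Setd1b and Ehmt2). All 5 are writers by symbol (17.2% of the 29 tested writers), and none of the 17 tested erasers was called (0.0%), both beside the same 10%. Smyd2 and Smyd5 were not classed as established histone enzymes. With edgeR, 10 members had an unadjusted p under 0.05 (21.7%, beside 27.5% of all genes). The CCL19 and no-CCL19 values did not overlap for 17 members (37.0%, beside 29.8% of all tested genes), 7 of them higher and 10 lower. By fitted log2 fold change (CCL19 over no CCL19), 19 members lay above 0 (beside 49.8% of all genes) and 27 below (50.2%), with a median of -0.01 beside 0.00 for all genes. The median size of the fold change was 0.10 on the log2 scale in the family and 0.16 in all genes.

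**Figure D2:**
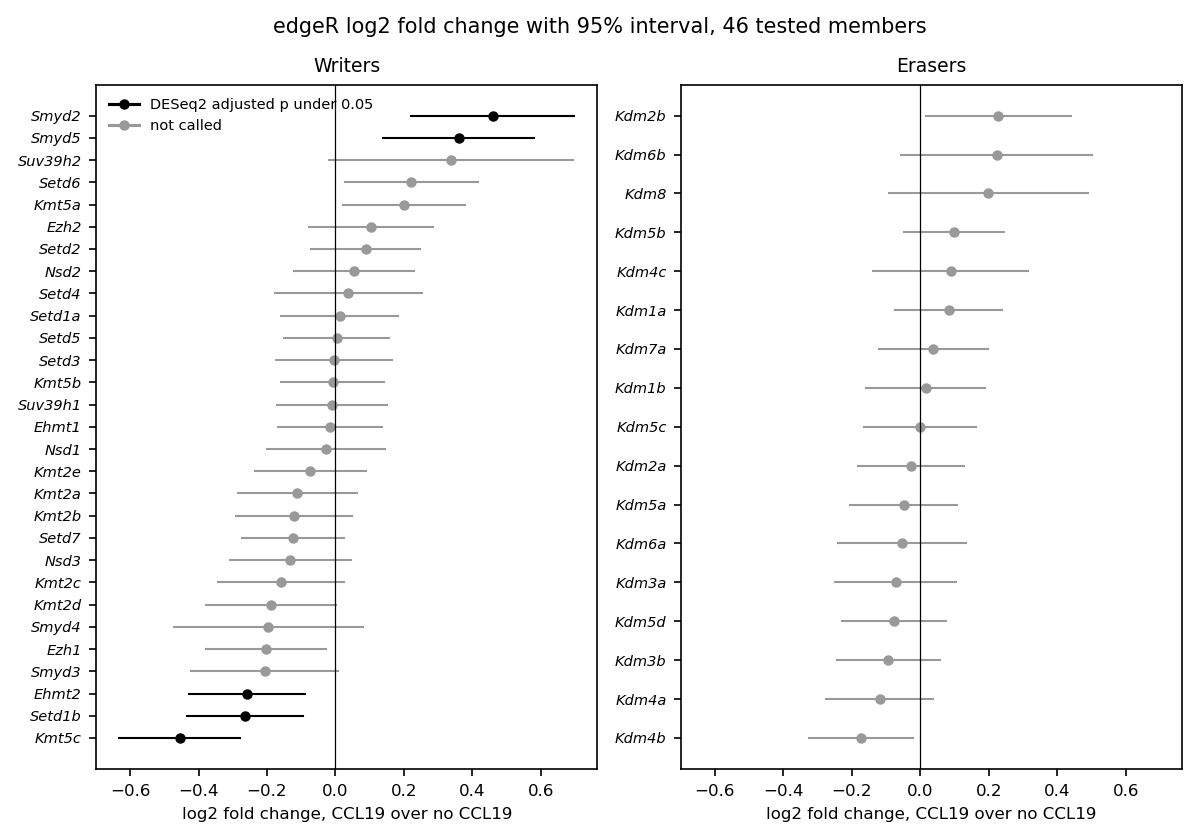
edgeR log2 fold change (CCL19 over no CCL19) with its 95% interval for the 46 tested members, ordered by value, writers and erasers in separate panels. Black marks the 5 members that DESeq2 called, all of them writers by symbol, from Kmt5c at -0.46 to Smyd2 at 0.46.

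The members called higher belong to the SMYD group, proteins with a SET domain split by a MYND zinc finger. Smyd2 (GeneID 226830, mm10 chr1:189880492-189922288, minus strand) methylates mainly non-histone proteins such as p53. Its level was 88.9, 75.7 and 69.2 CPM in the 3 CCL19 libraries and 48.6, 65.2 and 55.7 CPM in the 3 without. Every CCL19 library lay above every other library, by the smallest margin for the third. The means were 77.9 ± 10 and 56.5 ± 8.34 CPM (SD, n = 3 each), a log2 fold change of 0.46 ± 0.11 (SE, edgeR adjusted p = 0.0505, DESeq2 adjusted p = 0.00654). Smyd5 (GeneID 232187, mm10 chr6:85431976-85446429, plus strand), whose substrates are debated, was measured at 216, 198 and 172 CPM with CCL19 and at 129.5, 169 and 157 CPM without. Here too the groups did not overlap, with the third CCL19 library just above the second library without CCL19. Its log2 fold change was 0.36 ± 0.10 (SE), with an edgeR adjusted p of 0.0609 and a DESeq2 adjusted p of 0.0187. DESeq2's adjusted p for Smyd2 rose past 0.05 when the first or the second CCL19 library was left out, and for Smyd5 also when the first library without CCL19 was left out, with the highest values 0.0993 for Smyd2 and 0.160 for Smyd5. Smyd2 was called in 3 of the 5 leave-one-out fits that gave it an adjusted p, and the fit without the first library lacking CCL19 gave none. The other 2 tested SMYD genes lay below 0, Smyd3 at a log2 fold change of -0.21 and Smyd4 at -0.20, neither of them called.

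Kmt5c (GeneID 232811, mm10 chr7:4740127-4747514, plus strand) was the called member with the lowest DESeq2 adjusted p. It encodes SUV420H2, which di- and trimethylates H4K20 in heterochromatin. Its level was 38.7, 42.4 and 43.5 CPM with CCL19 and 60.8, 56.1 and 54.1 CPM without, so that the groups were separated by more than the range within either. The means were 41.5 ± 2.52 and 57.0 ± 3.44 CPM (SD, n = 3 each), a log2 fold change of -0.46 ± 0.08 (SE, edgeR adjusted p = 0.0505, DESeq2 adjusted p = 0.00153). DESeq2 called it in each of the 5 leave-one-out fits that gave an adjusted p, with log2 fold changes between -0.50 and -0.41 over all 6 in edgeR. The other H4K20 writers did not go the same way, including Smyd5, described above, whose substrates are debated. Kmt5b (SUV420H1), which makes the same marks as Kmt5c, stood at 155, 150.4 and 153 CPM with CCL19 and 158, 144.5 and 158 CPM without, with a fold change of -0.01 on the log2 scale and a 95% interval of -0.16 to 0.14. Kmt5a, which places the first methyl group on H4K20, stood at 166, 160.5 and 156 CPM with CCL19 and 123, 149 and 148 without. All 3 CCL19 values of Kmt5a lay higher, but it was not called, at a log2 fold change of 0.20 ± 0.08 (SE, edgeR adjusted p = 0.138, DESeq2 adjusted p = 0.125). Without the first library lacking CCL19, the lowest of the 6, it was at 0.11.

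Among the writers of H3K4 methylation, 7 of 8 tested had a log2 fold change below 0 (beside 50.2% of all genes). Their median was -0.14 beside 0.00 for all genes. The 8 include Smyd3, at -0.21, which was not classed as an established histone enzyme. Only Setd1b was called, as lower (12.5% of the 8, beside 4.61% of all genes called lower). Setd1b (GeneID 208043, mm10 chr5:123142193-123168630, plus strand) is a catalytic subunit of a COMPASS complex, which trimethylates H3K4. It was measured at 188, 199.5 and 185 CPM with CCL19 and 249.8, 223 and 213.5 CPM without, with no overlap. The means were 191 ± 7.86 and 229 ± 18.9 CPM (SD, n = 3 each), a log2 fold change of -0.26 ± 0.08 (SE, edgeR adjusted p = 0.0678, DESeq2 adjusted p = 0.0227). Its paralog Setd1a lay at 0.01. All 5 Kmt2 genes lay below 0, with a median of -0.12, and none was called. Of the 5, Kmt2e has a debated histone activity and is not counted among the 8 H3K4 writers. Kmt2d stood at 1458, 1494 and 1306 CPM with CCL19 and 1720, 1641 and 1487 CPM without, where the second CCL19 library was slightly above the third without CCL19 (log2 fold change -0.19 ± 0.09 SE, edgeR adjusted p = 0.186). With an offset in each library for the GC content and length of transcripts, Kmt2d was at -0.05 and Kmt2b at 0.02, so that 4 of the 5 Kmt2 genes and 6 of the 8 H3K4 writers lay below 0, both with a median of -0.10. Kmt2a stood at 998, 1092 and 1051 CPM against 1181, 1077 and 1133, and Kmt2b at 434, 444 and 406 CPM against 472, 483 and 442. Both pairs of groups overlapped, and the log2 fold changes were -0.11 and -0.12. On the eraser side, the 6 H3K4 demethylases had a median of 0.01 and none was called. Kdm1a (LSD1), which removes mono- and dimethyl groups from H3K4, stood at 162, 154 and 145 CPM with CCL19 and 141, 141.5 and 153 without. Its groups overlapped, at a log2 fold change of 0.08. The X-linked H3K4 demethylase Kdm5c stood at 228, 224 and 202 CPM against 208.5, 227 and 218, and its Y-linked paralog Kdm5d at 78.8, 82.4 and 84.1 CPM against 87.5, 82.8 and 88.6. The groups overlapped for both genes, and their 95% intervals were -0.16 to 0.16 and -0.23 to 0.07. With the offset they were at 0.06 and -0.16, neither called by DESeq2.

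Ehmt2 (G9a; GeneID 110147, mm10 chr17:34898492-34914051, plus strand) was the H3K9 writer that DESeq2 called. It mono- and dimethylates H3K9 in a complex with its paralog Ehmt1. Its level was 142, 150.2 and 149 CPM with CCL19 and 193, 173 and 160.3 CPM without, and the lowest value without CCL19 was still above the highest with it. The means were 147 ± 4.59 and 176 ± 16.7 CPM (SD, n = 3 each), a log2 fold change of -0.26 ± 0.08 (SE, edgeR adjusted p = 0.0721, DESeq2 adjusted p = 0.0316). For both Ehmt2 and Setd1b the highest of the 6 values was in the first library without CCL19, and DESeq2 kept each call in 2 of 6 leave-one-out fits, with adjusted p up to 0.180 for Ehmt2 and 0.140 for Setd1b. Suv39h1, the X-linked enzyme that trimethylates H3K9 in heterochromatin, stood at 62.5, 62.6 and 57.3 CPM against 63.5, 60.2 and 59.9, and its log2 fold change of -0.01 had a 95% interval of -0.17 to 0.15. Suv39h2 lay at 0.34, not called (DESeq2 adjusted p = 0.233). Its exons share 357 bases with those of Dclre1c on the other strand, and no source used here gives the strand setting of the counting, so its level is uncertain.

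Of the H3K9 erasers, 4 of 6 tested lay below 0, with a median of -0.08, and none was called. Kdm4b, which demethylates trimethylated H3K9 and H3K36, had the smallest unadjusted p of the 17 erasers. It stood at 91.5, 93.7 and 88.4 CPM with CCL19 and 107.5, 102 and 98.6 without. The groups did not overlap, but at a log2 fold change of -0.17 ± 0.07 (SE) its edgeR adjusted p was 0.132 and its DESeq2 adjusted p 0.132. Under the same offset it was at -0.04 (edgeR adjusted p = 0.692, DESeq2 adjusted p = 0.755).

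The H3K27 enzymes pair 2 PRC2 catalytic subunits, Ezh1 of resting cells and Ezh2 of dividing cells, with the erasers Kdm6a (UTX) and Kdm6b. Ezh1 stood at 116, 129 and 137 CPM with CCL19 and 159, 141 and 141 CPM without, all 3 CCL19 values being lower. Its log2 fold change of -0.20 ± 0.08 (SE) was not called (edgeR adjusted p = 0.127, DESeq2 adjusted p = 0.106), though DESeq2 called it lower without the third CCL19 library (-0.26, adjusted p = 0.0449). Ezh2 stood at 35.0, 35.7 and 38.1 CPM with CCL19 and 33.1, 32.2 and 36 without, at a log2 fold change of 0.10 (0.03 with the offset) with overlapping groups. Kdm6b was measured at 1869, 1628 and 1297 CPM with CCL19 and 1198, 1603 and 1306 CPM without. The first 2 CCL19 libraries were the highest of the 6, but the third lay below 2 of the 3 without CCL19. The means of 1598 ± 287 and 1369 ± 210 CPM (SD, n = 3 each) differed by less than the larger SD. The log2 fold change was 0.22 ± 0.13 (SE, edgeR adjusted p = 0.284, DESeq2 adjusted p = 0.212). Without the third CCL19 library, or without the second library lacking CCL19, DESeq2 called Kdm6b higher, with adjusted p of 0.0187 and 0.0477. Without the first CCL19 library its log2 fold change was 0.09 (DESeq2 adjusted p = 0.701), and without the first library lacking CCL19 it was 0.14 (0.551). Kdm6a stood at 62.5, 61.2 and 69.0 CPM against 70.8, 59.5 and 69.9, a log2 fold change of -0.05.

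**Figure D3:**
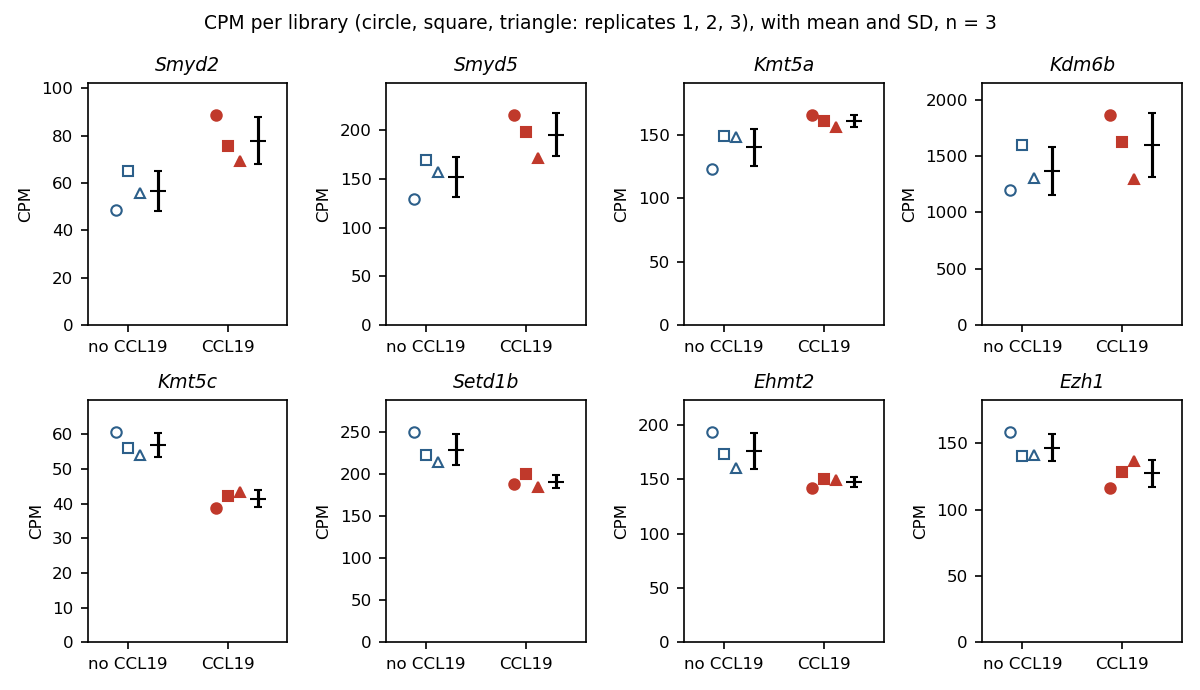
CPM of 8 members in each library, 1 panel per gene with its own axis from 0, 1 symbol shape per replicate number, with the group mean and SD (n = 3) beside them. The groups do not overlap for any of these 8 genes but Kdm6b, for which 2 of the 3 CCL19 libraries lie above all libraries without CCL19 and the third does not.

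For H3K36, none of the erasers was called. Among the 5 writers grouped here only Smyd2, which methylates mainly non-histone proteins, was called. Setd2, the enzyme that trimethylates H3K36 and travels with RNA polymerase II, stood at 207, 200.0 and 203 CPM with CCL19 and 192, 178 and 203.5 CPM without, and its log2 fold change was 0.09. The 3 NSD enzymes, which dimethylate H3K36, lay between -0.13 and 0.05. Kdm2b, an eraser of H3K36 dimethylation that also recruits a Polycomb complex to CpG islands, stood at 269, 245 and 208 CPM against 185, 224 and 206, an overlap through the third CCL19 library. Its log2 fold change of 0.23 ± 0.10 (SE) had an edgeR adjusted p of 0.155, and its exons share 627 bases with Rnf34 on the other strand. Setd6, which methylates the NF-kB subunit RelA, stood at 56.2, 51.4 and 47.9 CPM with CCL19 and 40, 47.4 and 45.8 without. Its groups did not overlap, and its log2 fold change of 0.22 ± 0.09 (SE) was not called (edgeR adjusted p = 0.133, DESeq2 adjusted p = 0.138).

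Set side by side, the 29 tested writers had a median log2 fold change of -0.02, with 11 above and 18 below 0, and a range from -0.46 to 0.46. The 17 tested erasers had a median of 0.00, with 8 above and 9 below, and a range from -0.17 to 0.23. With the GC and length offset the medians were both -0.04. Restricted to members with an established histone activity, the medians were -0.07 over 20 writers and -0.01 over 16 erasers. DESeq2 called 0 of these writers higher and 3 lower (beside 5.4% and 4.61% of all genes). The 0 follows from the classing, which leaves out Smyd2 and Smyd5, the only members called higher. Of the 3 called lower, only Kmt5c was still called with the GC and length offset. For the erasers, each 95% interval lay within a change of 1.5-fold in either direction, with bounds from -0.32 to 0.50, and the same held for 43 of the 46 members (93.5%) and 73.1% of all tested genes. Summed CPM of the writers was 6728, 6883 and 6531 with CCL19 and 7389, 7016 and 7016 without, so that all 3 sums were lower with CCL19. Kmt2a and Kmt2d made up 36.1% to 39.3% of these sums, and their CPM is not scaled for their long transcripts. Summed CPM of the erasers was 4101, 3823 and 3482 against 3414, 3770 and 3548, with overlap, and Kdm6b alone made up 35.1% to 45.6% of it. The ratio of the 2 sums was 1.64, 1.80 and 1.88 with CCL19 and 2.16, 1.86 and 1.98 without, where the third CCL19 library overlapped with the second without. Leaving out Kdm6b the ratio was 3.01, 3.13 and 2.99 against 3.33, 3.24 and 3.13, with overlap between the second CCL19 library and the third without. These sums are descriptions, with no test.

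The ratio of paralogs within a library does not depend on its depth or its scaling factor, but does move with an offset that differs between genes. For 12 pairs the log2 ratio was compared by a 2-sided exact permutation test over the 6 libraries, which with 3 against 3 cannot go below 0.1. In 4 of the 12 pairs the groups did not overlap, beside 29.8% of all tested genes taken singly. The share over other pairs of genes was not computed. Each of the 4 had that smallest p of 0.1, or 0.3 after Benjamini-Hochberg adjustment over the 12 (exact permutation). None of these passed a threshold of 0.05. In 3 of these pairs the denominator, Kmt5c, Setd1b or Ehmt2, was a member that DESeq2 called lower. Their numerators Kmt5b, Setd1a and Ehmt1 had log2 fold changes of -0.01, 0.01 and -0.02, so these 3 ratios largely repeat those calls. The log2 ratio of Kmt5b to Kmt5c was 2.0, 1.83 and 1.81 with CCL19 and 1.38, 1.37 and 1.55 without, a difference of 0.45 in the means. That of Ezh2 to Ezh1 was -1.73, -1.85 and -1.85 against -2.26, -2.13 and -1.97, a difference of 0.31. Setd1a over Setd1b differed by 0.27 and Ehmt1 over Ehmt2 by 0.24, the latter 0.15 without the first library lacking CCL19. From the fold changes fitted with the GC and length offset, the 4 differences were 0.28, 0.22, 0.22 and 0.11 in the same order. In each of these pairs the denominator has the higher GC content. In each of these 4 pairs the named numerator was the larger relative to its paralog with CCL19 in all 3 libraries. The mean ratio of Kdm6b to Kdm6a differed by 0.27 with overlapping groups (exact permutation p = 0.4), and by 0.13 to 0.47 when each library was left out or 0.50 with the offset. The ratios of Kmt2a to Kmt2b, Kmt2c to Kmt2d and Kdm3a to Kdm3b differed by 0.01 to 0.03, and by -0.12, -0.13 and -0.06 with the offset.

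**Figure D4:**
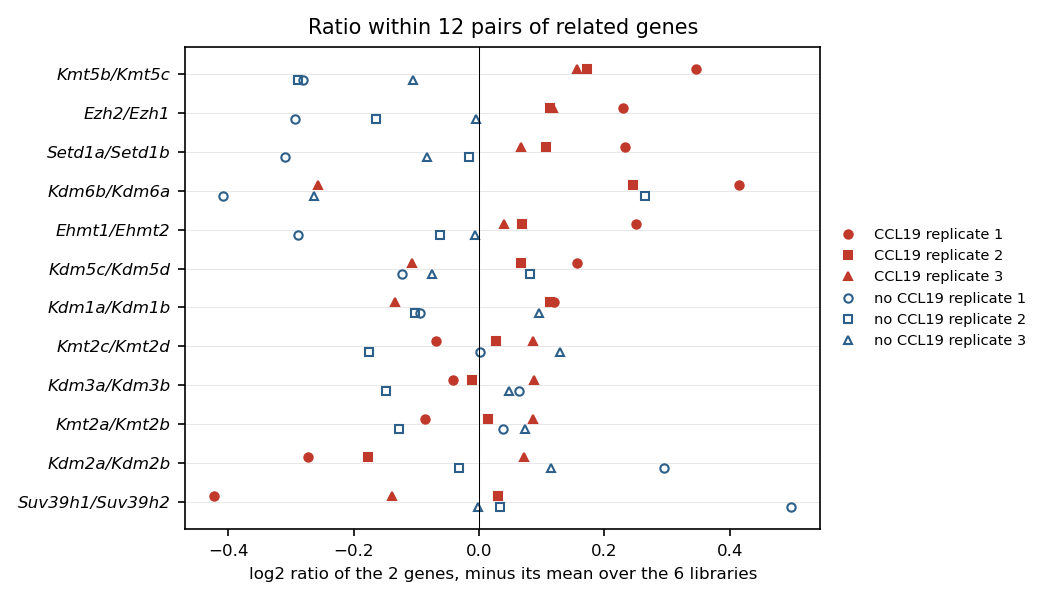
log2 ratio of CPM between the genes of 12 paralog pairs in each library, minus the pair's mean over the 6 libraries, with filled symbols for CCL19 and open symbols for no CCL19. Kmt5b/Kmt5c, Ezh2/Ezh1, Setd1a/Setd1b and Ehmt1/Ehmt2 show groups that do not overlap, and the other 8 pairs overlap.

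Base composition moved with the fold change across genes. Over the 11188 tested genes with an annotated transcript, the rank correlation (Spearman) of log2 fold change with the GC content of transcripts was -0.33, and genes of the highest of 10 GC classes (58.3% to 72.9%) had a median of -0.16. That class holds 7 members, Ehmt2, Kdm4b, Kdm6b, Kmt2b, Kmt2d, Kmt5c and Setd1b, among them all 3 that DESeq2 called lower. Across members it was -0.33 over 29 writers and 0.10 over 17 erasers. These are descriptions across genes that share libraries and are not independent. With a per-library offset for GC content and length, DESeq2 still called Smyd2 (log2 fold change 0.54, adjusted p = 0.00802), Smyd5 (0.41, 0.0192) and Kmt5c (-0.32, 0.0209). Setd1b and Ehmt2 were no longer called, both at -0.10 with DESeq2 adjusted p of 0.361 and 0.389. Kdm6b became called as higher at 0.36 (DESeq2 adjusted p = 0.0383), and edgeR with the same offset called no member. The offset was fitted to each library with the difference between the groups left in. It therefore takes out any difference that varies with GC content or length, whatever its source, and is not a test of that source. Whether base composition had a part in the difference between the groups was not tested.

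**Figure D5:**
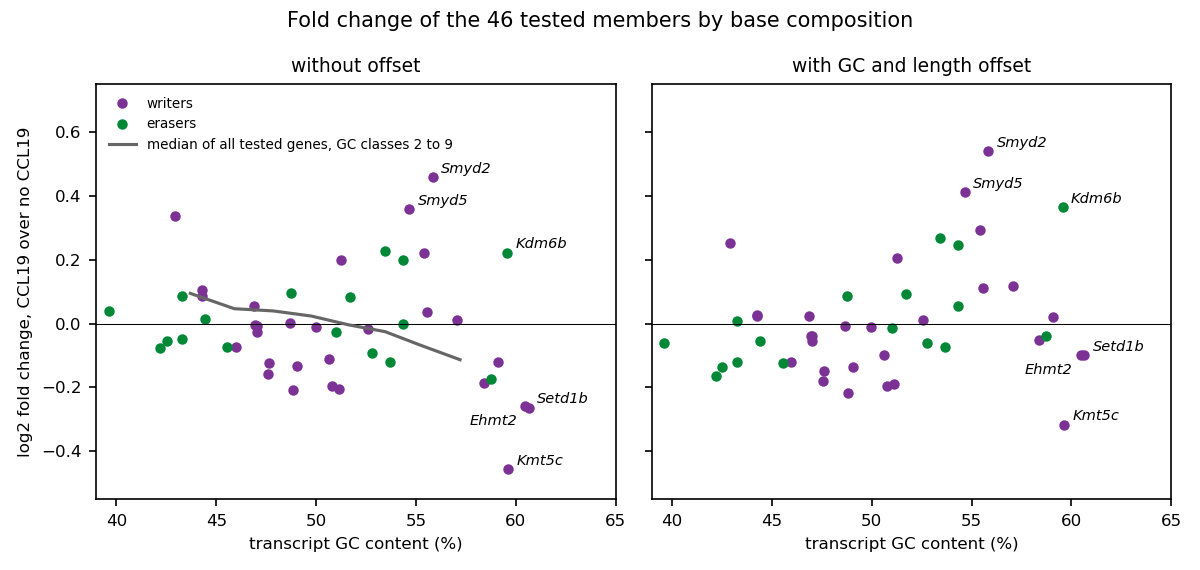
Log2 fold change (CCL19 over no CCL19) against transcript GC content in percent for the 46 tested members, without an offset on one side and with the GC and length offset on the other. Without the offset Kmt5c, Setd1b and Ehmt2 lie lowest at GC contents near 60%, and with it Setd1b and Ehmt2 lie at -0.10 while Kdm6b lies at 0.36.

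Genes that work with these enzymes were read from lists of partners and cofactors. A list of 15 genes was read for methyl donor supply and cofactor metabolism. It holds 11 genes that make or recycle S-adenosylmethionine and its folate carbons, and the central carbon enzymes Ldha, Idh1, Idh2 and Ogdh. DESeq2 called 6 higher and 0 lower (beside 5.4% of all genes called higher), with a median log2 fold change of 0.13. Without the 4 central carbon enzymes, of which Ldha was called, it called 5 of 11 higher, with a median of 0.29. Mat2a, which makes S-adenosylmethionine, stood at 540.8, 494 and 488 CPM with CCL19 and 371, 434 and 433 without (log2 fold change 0.30, edgeR adjusted p = 0.0636, DESeq2 adjusted p = 0.0137). The folate enzymes Mthfd2 and Mthfd1 were also called, at log2 fold changes of 0.45 and 0.39, and their groups did not overlap. Of 9 PRC2 partners, 8 lay above 0 with a median of 0.08. DESeq2 called 2 of the 9 (beside 10% of all genes), the histone-binding subunit Rbbp7 higher (log2 fold change 0.25, adjusted p = 0.0376) and the Polycomb-like Phf1 lower, at 168, 189 and 211 CPM with CCL19 and 272, 245 and 217 without (-0.37, adjusted p = 0.00935). Of 15 partners of COMPASS and MLL complexes, DESeq2 called 2 lower (beside 4.61% of all genes) and 0 higher, menin (Men1) at -0.25 and Pagr1a at -0.32, the latter with overlapping groups. DESeq2 called 0 of 7 tested writers and 0 of 7 tested erasers outside the symbol rule, such as Dot1l (beside 10% of all genes). It also called 0 of 8 readers of heterochromatin marks. Of these readers, 7 lay above 0, with a median log2 fold change of 0.13. The groups did not overlap for 3 of the 8 (37.5%, beside 29.8% of all tested genes), all 3 higher. With so few genes, 0 calls do not show that a list was unchanged. Beside these, 9 T cell markers all lay below 0. Of them, 5 are general T cell genes such as Cd4 and Cd3e and 4 are higher in naive cells (Ccr7, Lef1, Tcf7 and Il7r). Their summed level was 3839 to 4604 CPM with CCL19 and 4495 to 5445 without. DESeq2 called 3 of the 9 lower (beside 4.61% of all genes), Ccr7, Lef1 and Tcf7, at log2 fold changes of -0.32, -0.28 and -0.35. The groups of Lef1 overlapped, with the third CCL19 library at 517 CPM and the second without CCL19 at 515. The part of the T cell and B cell markers in the differences above was not tested.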

How the data were processed

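Libraries of total RNA, made with an Illumina TruSeq RNA kit, were aligned and counted by the authors. Per the submitters' processing notes the tools were STAR 2.5, Subread, featureCounts 1.5.0-p1 and DESeq2 1.28.1 with mm10. Annotation release, strand setting and handling of multiply mapped reads: not given in the sources used here. Whole-number counts of reads per gene, not normalized, make up the deposited gene table. The authors' deposited list of changed genes gives each gene's direction in words. The members, role classes and gene lists were chosen with earlier results of these data known.

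Genes were filtered with filterByExpr (11666 of 24470 kept), scaled by TMM and tested with edgeR 4.0.16's quasi-likelihood test over all 6 libraries without covariates, with Benjamini-Hochberg adjustment over all tested genes. DESeq2 1.42.0 on all genes and limma 3.58.1 (voom) were alternatives (R 4.3.3). The scripts were tested on simulated counts. Lengths and GC came from GENCODE mouse release M21, and GC was available for 95.9% of tested genes. The offset used splines with 5 degrees of freedom. Log2 CPM used a prior count of 2 for the principal component, the deviations of libraries and the offset. Log2 ratios of pairs used none. Python 3.11.15 and matplotlib 3.10.9 drew the plots. Values in every library are given for members called by either tool, those whose groups did not overlap at an unadjusted edgeR p under 0.05, 15 enzymes listed by name, and the 5 of highest level per length; Kdm2b, Suv39h2, Setd1a, Smyd3 and Smyd4 were added after their values were seen. Of the other lists, up to 3 genes called by DESeq2 were named, and 1 marker is not reported here. Alternatives were other filters, scalings and tools, a replicate term, the offset and leaving out each library; DESeq2 with the replicate term or the offset, pair ratios without each library, the offset for pairs, H3K4 writers and Kmt2 genes and the shorter methyl donor list were chosen after seeing the data. CCL19 libraries held 16978736, 26980697 and 21509499 counts and the others 23816093, 27429898 and 18203667.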

Additional observations from a re-analysis of the deposited data

How the results depend on the processing

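The counts of calls depended on the tool and on single libraries. edgeR called no gene higher or lower, but 803 and 797 with no filter on low counts (2 and 3 of them members), 267 and 262 with a robust prior (1 and 1), and DESeq2 called 630 and 538 (2 and 3). Leaving out each library, edgeR called 0 to 772 genes higher and 0 to 827 lower, of them 0 to 3 and 0 to 2 members, and DESeq2 20 to 905 and 35 to 799, of them 0 to 4 and 0 to 3 members. Deviations of same-numbered libraries correlated at -0.164, 0.081 and -0.021, and those of differently numbered libraries at -0.214 to 0.217. With 3 libraries a group, these values cannot show whether replicate numbers mark a shared animal or day. With the replicate block edgeR called 0 genes, and DESeq2 called 103 higher and 75 lower, of them 1 and 1 members (Smyd2 and Kmt5c). With the GC and length offset DESeq2 called 298 genes lower, 1 of them a member. The cause of these shifts was not tested. Writers had a median log2 fold change of -0.069 with established histone enzymes only and -0.057 to -0.01 leaving out each library. With the GC and length offset, writers had -0.038 and erasers -0.039, and erasers had -0.039 with the offset and the replicate block together and -0.031 to -0.007 leaving out each library. Small fold changes turned sign. Kdm5c was 0.056 with the offset, 0.057 with the replicate block added and 0.057 in DESeq2, and Kmt2b 0.02, 0.02 and 0.021. Leaving out each library, Kdm5c ranged from -0.037 to 0.043 (DESeq2 -0.036 to 0.051), Kmt5b from -0.054 to 0.012 (-0.049 to 0.019) and Suv39h1 from -0.034 to 0.025 (-0.033 to 0.033). The log2 ratio difference ranged from -0.052 to 0.055 for Kmt2a/Kmt2b, -0.051 to 0.103 for Kmt2c/Kmt2d and -0.044 to 0.062 for Kdm3a/Kdm3b, and was -0.119, -0.127 and -0.063 with the offset. Of 124 checks of counts and medians 79 stayed within their limits, and of 561 checks of single members or pairs 493 kept direction and side of the threshold. The coefficient of variation between libraries of a group, which edgeR terms biological, was 8.72%, and it may be technical here. Having only 3 libraries a group limits what could be called.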

Other observations

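Kdm4d and Smyd1 did not pass the filter on low counts. Kdm4d, a demethylase of trimethylated H3K9, had 3, 3 and 7 raw counts with CCL19 and 13, 11 and 12 without, and Smyd1, a muscle protein of the SMYD group, had 2, 2 and 1 against 3, 2 and 1. The Kdm4d values did not overlap, and DESeq2 gave no adjusted p for it.

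Exons of 6 members share bases with a gene on the other strand, and without the strand setting their levels are uncertain: Kmt2e with Srpk2 (972 bases), Kdm2b with Rnf34 (627) and A930024E05Rik (199), Kdm1b with Dek (498), Suv39h2 with Dclre1c (357), Kdm7a with 4930599N23Rik (287) and Nsd2 with Nelfa (51). None of the 5 members that DESeq2 called is among them.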
